A study of Homo sapiens with 12 samples.

Results

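The CCT complex, also called TRiC, is the chaperonin of the eukaryotic cytosol, and its 8 subunits are encoded by TCP1, CCT2, CCT3, CCT4, CCT5, CCT6A, CCT7 and CCT8. The complex was chosen by the level of CCT2 in HEK293T cells, which was lower in −Met+Hcy medium, so the subunit values of HEK293T cells across the media are a description without p-values, and the number of subunits called there is printed only beside the share of all genes, with nothing read from it. The 8 genes were found by symbol among 23500 genes listed, each under 1 entry, and all 8 were among the 17162 genes tested, which had a summed count of at least 10 over the 12 libraries. RNA was sequenced from HEK293T cells, an established human embryonic kidney line that carries the SV40 large T antigen, and from R1, 1 clone of HEK293T that proliferates without methionine. Cells of each line were kept for 12 h in medium with methionine (+Met) or in medium in which its precursor homocysteine took the place of methionine (−Met+Hcy), and the 4 groups hold 3 libraries each. The titles of the R1 libraries name R1, while their cell line label reads HEK293T; the titles were followed. No source used here says whether the 3 libraries of a group came from separate cultures, so the p-values measure the spread between these libraries, which may be technical.

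CCT is built as a pair of stacked rings, each with 1 copy of every subunit, and encloses unfolded proteins in a chamber that closes with ATP hydrolysis. Actin and tubulin are its best known substrates, and many WD40 proteins also pass through it. CCT2, CCT4 and CCT5 lie on the side of the ring that binds ATP with high affinity, and CCT3, CCT6A and CCT8 lie on the side of low affinity. Because every ring needs all 8 proteins, the question was whether the lower CCT2 level in −Met+Hcy medium is shared by the other subunit mRNAs, and whether the same holds in the methionine-independent clone.

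The genes lie on 7 chromosomes of GRCh38, in the coordinates of the GENCODE annotation. TCP1, which encodes the alpha subunit, lies at chr6:159778498-159789703 on the minus strand, and CCT2 (beta) at chr12:69585426-69601570 on the plus strand. CCT3 (gamma) lies at chr1:156308968-156367873 on the minus strand. CCT4 (delta) and CCT7 (eta) share chromosome 2, at 61868085-61888671 on the minus strand and at 73233420-73253021 on the plus strand. CCT5 (epsilon) lies at chr5:10249929-10266389 on the plus strand and CCT6A (zeta) at chr7:56051685-56063989 on the plus strand. CCT8 (theta) lies at chr21:29055805-29073797 on the minus strand. Their canonical transcripts have 11 to 16 exons and are 1847 bases (CCT7) to 3293 bases (CCT5) long, with a GC content from 41.5% (CCT8) to 51.6% (CCT7).

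The 250 bases before an annotated start are shown for TCP1 and CCT2, which had the largest changes with the medium in HEK293T cells, and for CCT7, which had the smallest. They come from RefSeq on GRCh38.p14, run 5′ to 3′ on the strand of the gene and end at the base before the start. Capitals mark letters that match a searched motif on either strand, a CCAAT box (CCAAT) or the core of a heat shock element (GAANNTTC).
TCP1, chr6:159789603-159789852, minus strand: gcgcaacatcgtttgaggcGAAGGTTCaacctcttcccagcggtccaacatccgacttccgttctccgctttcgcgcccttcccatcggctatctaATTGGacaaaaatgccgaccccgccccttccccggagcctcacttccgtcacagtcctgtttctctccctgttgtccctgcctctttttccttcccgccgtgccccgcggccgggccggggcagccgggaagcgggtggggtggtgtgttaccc
CCT2, chr12:69585209-69585458, plus strand: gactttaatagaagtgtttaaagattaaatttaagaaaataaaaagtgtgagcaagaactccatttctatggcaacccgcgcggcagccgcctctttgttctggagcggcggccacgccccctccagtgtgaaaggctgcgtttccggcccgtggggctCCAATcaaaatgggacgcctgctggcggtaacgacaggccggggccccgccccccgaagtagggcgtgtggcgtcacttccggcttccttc
CCT7, chr2:73234058-73234307, plus strand: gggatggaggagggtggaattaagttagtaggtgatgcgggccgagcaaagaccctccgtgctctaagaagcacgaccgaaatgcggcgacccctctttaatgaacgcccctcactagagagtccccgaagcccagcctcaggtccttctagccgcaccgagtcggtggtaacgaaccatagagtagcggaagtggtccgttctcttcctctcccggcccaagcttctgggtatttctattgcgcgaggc
The TCP1 window held GAANNTTC 231 bases and CCAAT 154 bases before the start, the CCT2 window held CCAAT 91 bases before the start, and the CCT7 window held neither. The RefSeq table gave 9 windows for 7 of the 8 genes, which are not all separate regions before the canonical start. The CCT5 window (chr5:10250287-10250536) lies after the canonical start at 10250280. The CCT2 window with GAANNTTC (chr12:69585639-69585888) lies after the canonical start at 69585459. The 2 windows of CCT4 overlap. CCAAT was found in 4 of the 9 windows, those of TCP1, CCT2, CCT3 and CCT8, against 32% of 35097 human windows of the same length. GAANNTTC was found in 2 of 9 windows, 1 each of TCP1 and CCT2, against 5.78% of all windows. The other heat shock element core (TTCNNGAA, 6.62% of all windows), the E-box (CACGTG, 6.34%), the composite site of ATF4 and C/EBP (TGATGNAA, 3.15%) and the NRF1 core (GCGCATGC, 2.63%) had no match in the 9 windows. The matches did not overlap, and a match is a description of letters and no evidence of binding.

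Total counts ranged from 12664158 to 18771349 per library. The third library of R1 in −Met+Hcy stood apart: its chi-square per gene against the other libraries of its group was 205 and 236, against 7.13 to 90.1 for all other pairs within groups, and its deviation from the group mean ran against GC content (Spearman's rho −0.744 over 11043 genes, which are not independent). The other libraries of its group had 0.6 and 0.73, and those of the other groups −0.338 to 0.537, where the deviations of a group sum to 0. CHAC1, a gene of the amino acid response, was at 4.16 CPM in that library and at 24.6 and 27.0 CPM in the other R1 libraries of −Met+Hcy, while the R1 +Met libraries had 4.07 to 4.34 CPM. MAT2A, which encodes the enzyme that makes S-adenosylmethionine from methionine, was at 475 CPM there, above the 173 to 194 CPM of R1 +Met and below the 904 and 955 CPM of the other libraries. Results that rest on this library are given with and without it. Of the 5 genes listed for HEK293 cells, VIM (305 to 834 CPM), NEFL (45.7 to 92.6 CPM) and NEFM (7.61 to 72.5 CPM) were present, PAX2 and LHX1 were near 0, at 0.205 to 1.33 CPM, in HEK293T cells and at 1.33 to 6.06 CPM in R1 cells, and of the genes of other cell types PTPRC, ALB and PECAM1 were at 0 to 0.685 CPM and KRT5 was at 0, while COL1A1 reached 39.8 CPM.

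The 8 mRNAs were abundant, between 275 and 1767 CPM in every library, where CPM is a gene's count scaled to a common library size by the column sum. The summed level of the 8 was 7687, 7927 and 7863 CPM in HEK293T +Met and 4859, 5506 and 5589 CPM in HEK293T −Met+Hcy, a difference of −32% in the mean. In R1 it was 6230, 7669 and 6132 CPM in +Met and 5771, 5215 and 5509 CPM in −Met+Hcy, a difference of −17.7%, with or without the third −Met+Hcy library. The sum of that library hides opposite departures of its subunits. They ran from 0.689 (CCT7) to 2.08 (CCT8) times the mean of the other libraries of its group on the TMM scale used below. The HEK293T groups did not overlap in this sum, and neither did the R1 groups, whose lowest +Met library was 361 CPM above the highest −Met+Hcy library. CPM from column sums and the log2 fold changes below differ in scale, because the model used TMM factors, which were 0.828 to 0.882 in HEK293T +Met and 0.93 to 1.12 elsewhere. Scaling by total count in place of TMM moved the median log2 fold change of all genes to 0.33 in HEK293T cells across the media, from 0.03, and to 0.37 in R1 against HEK293T in +Met. It also moved the calls in HEK293T cells from 730 higher and 477 lower to 1794 higher and 213 lower. Changes of the subunits are given relative to the TMM scale, and fewer RNA molecules per cell cannot be told apart from a larger share of other RNA in these bulk libraries.

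**Figure D1:**
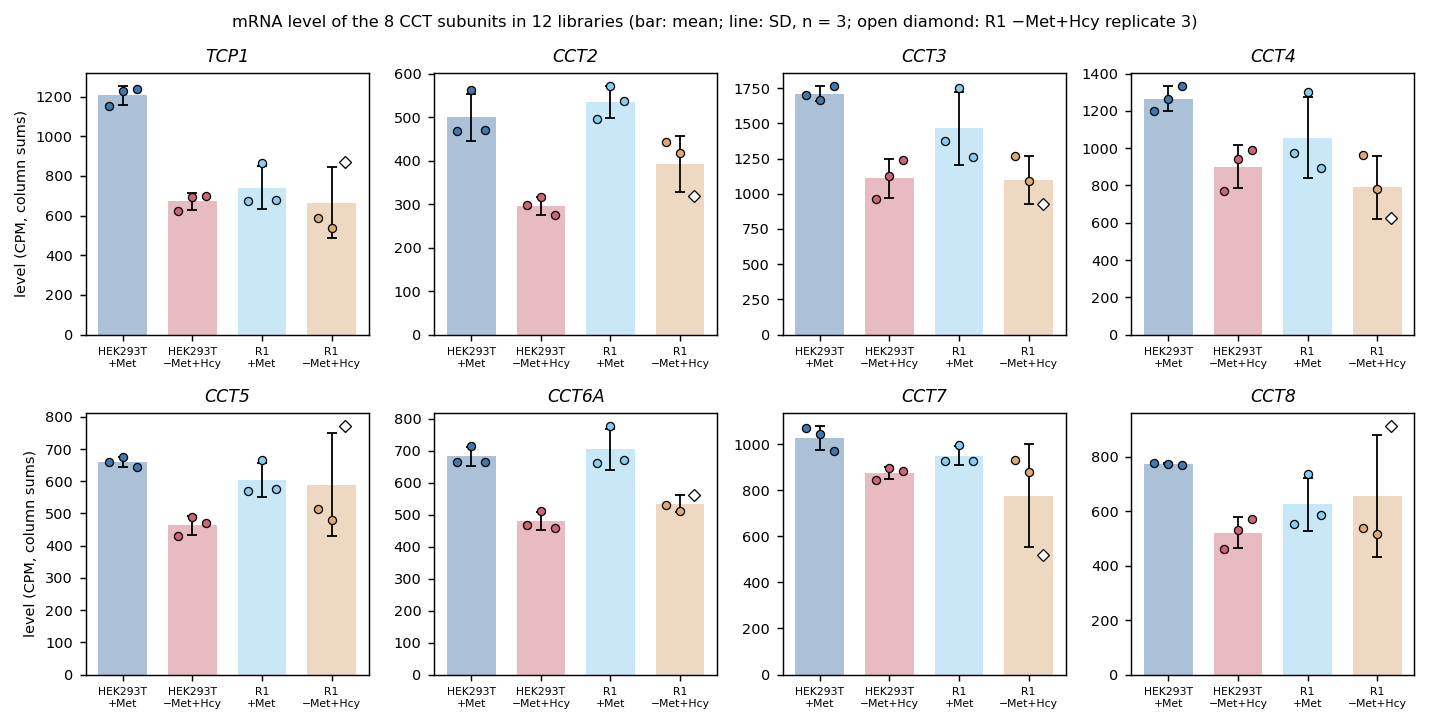
Level of each subunit mRNA in the 12 libraries, in CPM of column sums on linear axes from 0, by group; points are libraries, bars are means and lines are SD (n = 3), and the open diamond is the third R1 −Met+Hcy library. For all 8 subunits every HEK293T −Met+Hcy library lies below every HEK293T +Met library, while the R1 groups overlap for 6 of the 8.

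In HEK293T cells all 8 subunits were lower in −Met+Hcy medium, with log2 fold changes from −0.53 (CCT7) to −1.14 (TCP1) and a median of −0.83, against a median of 0.03 over all genes tested. Among the subunits of high ATP affinity, CCT2, which is also known as a receptor for the autophagy of protein aggregates, was at 467, 562 and 470.3 CPM in +Met and at 298, 316 and 275 CPM in −Met+Hcy. CCT4 was at 1198, 1264 and 1335 CPM and at 770.2, 941 and 993 CPM. CCT5, whose mutation causes a hereditary sensory neuropathy, was at 660.2, 674 and 643 CPM and at 432, 489 and 471 CPM. Each of these 3 had its highest −Met+Hcy library below its lowest +Met library. The log2 fold changes of the model were −1.05 (SE 0.16) for CCT2, −0.78 (SE 0.21) for CCT4 and −0.80 (SE 0.24) for CCT5.

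The subunits of low ATP affinity were lower as well. CCT3, the most abundant of the 8 per length, was at 1698, 1664 and 1767 CPM in +Met and at 964, 1127 and 1237 CPM in −Met+Hcy. CCT6A was at 665, 715 and 666 CPM and at 467, 512 and 459 CPM. CCT8 was at 776, 774 and 771 CPM and at 460.4, 533 and 572 CPM. Again no −Met+Hcy library reached the level of a +Met library, and the +Met libraries of CCT8 were the tightest of any subunit, with an SD of 2.55 CPM. The log2 fold changes were −0.91 (SE 0.20) for CCT3, −0.80 (SE 0.17) for CCT6A and −0.86 (SE 0.28) for CCT8.

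TCP1 and CCT7 marked the ends of the range. TCP1, the founding member of the family, was at 1151, 1228 and 1240 CPM in +Met and at 623, 694 and 698 CPM in −Met+Hcy (log2 fold change −1.14, SE 0.25). CCT7 was at 1071, 1044 and 971 CPM and at 845, 896 and 885 CPM, a log2 fold change of −0.53 (SE 0.18). The gap between the groups was 453 CPM for TCP1 and 74.7 CPM for CCT7. Libraries of the 2 groups did not overlap for 8 of the 8 subunits, beside 9.8% of all genes tested that were lower without overlap. At an adjusted p under 0.05 in edgeR (quasi-likelihood) after Benjamini-Hochberg adjustment, 5 of 8 subunits were called (TCP1, CCT2, CCT3, CCT4 and CCT6A), beside 2.78% of all genes called lower. With a log2 fold change under −1 as well, 2 were called, TCP1 and CCT2, beside 1.59% of all genes. CCT2 entered these counts by the choice of the complex. Leaving out any 1 HEK293T library left 1 subunit called, or 2 without the third −Met+Hcy library, beside 73 to 190 genes called lower. Leaving out the third R1 −Met+Hcy library, which lowers the shared spread, gave 8, beside 2138 of 17069 genes called lower.

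The subunits are highly expressed genes, and such genes were lower in HEK293T cells as a class. Of the 275 genes at least as abundant as the least abundant subunit, the subunits included, 89.5% had a log2 fold change below 0, with a median of −0.54, and 18.9% were called lower. Of the subunits only CCT7 (−0.53) was above that median, and TCP1 and CCT2 were farthest below it. On the scale of total counts the 8 subunits were still all lower, at −0.23 to −0.84 with a median of −0.54. The part of abundance in the lower subunit levels was not tested.

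In R1 cells none of the 8 subunits passed the test across the media. The log2 fold changes ran from −0.41 (CCT2) to 0.15 (CCT8), 6 below 0 and 2 above it, and the median was −0.31 against −0.02 for all genes. By edgeR with Benjamini-Hochberg adjustment, adjusted p-values were 0.622 to 0.962 and 0 of 8 subunits were called, as were 0% of all genes tested in the direction of lower. DESeq2 also called 0 of 8, beside 7 of 17162 genes called lower. A p that misses the threshold does not show that the levels were alike in the 2 media.

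Among the subunits of high ATP affinity, CCT2 was at 496, 571 and 537 CPM in R1 +Met and at 443, 417 and 319.5 CPM in R1 −Met+Hcy, without overlap, at a log2 fold change of −0.41 (SE 0.16). CCT4 was at 973, 1303 and 892 CPM and at 964, 782 and 627 CPM (−0.39, SE 0.21). CCT5 was at 569.7, 666 and 576 CPM and at 513, 481 and 773 CPM, a log2 fold change of 0.04 (SE 0.24). The third −Met+Hcy library was the lowest for CCT2 and CCT4 and by far the highest for CCT5. Among those of low affinity, CCT3 was at 1376, 1753 and 1263 CPM and at 1267, 1091 and 927 CPM (−0.39, SE 0.20). CCT6A was at 662, 778 and 672 CPM and at 529, 512 and 562 CPM, also without overlap (−0.35, SE 0.17). CCT8 was at 554, 736 and 585 CPM and at 538, 515 and 914 CPM (0.15, SE 0.28). CCT8 thus had its highest R1 value in the third −Met+Hcy library, while its other −Met+Hcy libraries lay below every +Met library. TCP1 was at 674, 865 and 681 CPM and at 587, 539.5 and 869 CPM (−0.08, SE 0.25), and CCT7 at 925, 998 and 926 CPM and at 929.7, 878 and 519 CPM (−0.28, SE 0.18). No overlap between the groups was found for 2 of 8 subunits, CCT2 and CCT6A, beside 4.87% of all genes lower without overlap.

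The third R1 −Met+Hcy library split the subunits. On the TMM scale, against the mean of the other libraries of its group, it had 2.08 times the level of CCT8, 1.86 times that of CCT5, 1.85 times that of TCP1 and 1.30 times that of CCT6A. It had 0.945 times the level of CCT3, 0.892 times that of CCT2, 0.866 times that of CCT4 and 0.689 times that of CCT7. CCT7 and CCT3 have the highest GC contents of the 8 (51.6% and 50.6%), but CCT2 and CCT4, at 42.6% and 42.9%, differ little in GC content from TCP1 (42.3%) and CCT6A (42.5%). The part of GC content in the split was not tested beyond the removal of each library's trend. Without this library all 8 subunits had log2 fold changes below 0 in R1, from −0.12 (CCT7) to −0.48 (CCT6A), and TCP1 (−0.44), CCT5 (−0.33) and CCT8 (−0.29) were close to CCT2 (−0.36), CCT3 (−0.36) and CCT4 (−0.32). Still 0 of 8 were called by edgeR, beside 0 of 17069 genes called lower. DESeq2 without this library, an alternative added once the data had been seen, called CCT6A alone, beside 18 of 17069 genes called lower. With the trends of GC content and length removed from each library and all 12 libraries kept, 8 of 8 were below 0 (−0.12 to −0.57) and 0 were called.

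**Figure D2:**
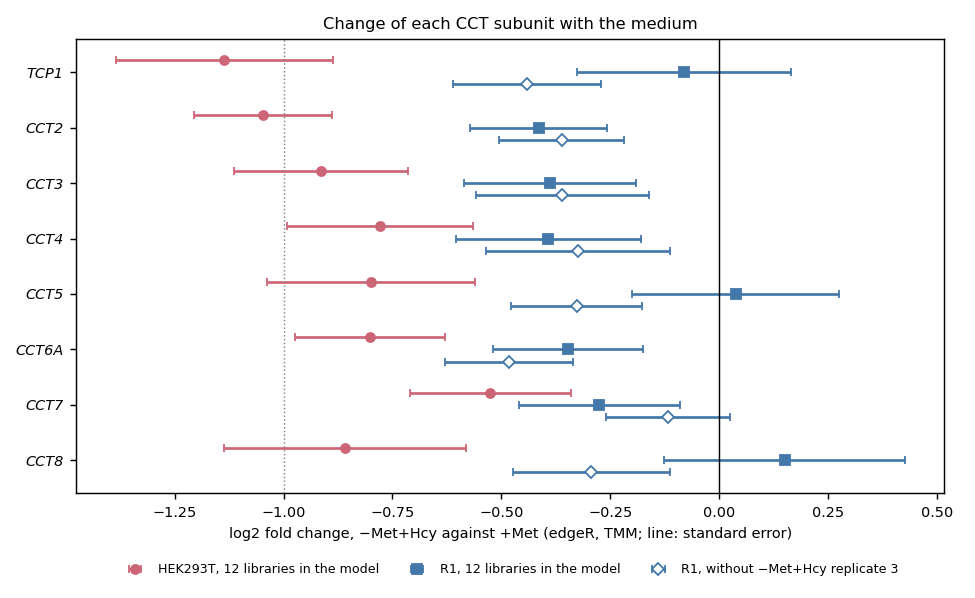
Log2 fold change of each subunit in −Met+Hcy against +Met, on the TMM scale; points are the estimates of edgeR and lines are their standard errors, for HEK293T, for R1 with all 12 libraries and for R1 without the third −Met+Hcy library. The HEK293T estimates run from −1.14 to −0.53, and the R1 estimates without that library run from −0.48 to −0.12.

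The response to the medium was compared between the lines by the interaction term of the model, R1 minus HEK293T. All 8 differences were positive, from 0.25 (CCT7) to 1.05 (TCP1) with a median of 0.58, except that total count scaling turned CCT7 to −0.06 and took the median to 0.26. Positive differences were common among abundant genes. Of the 275 genes at least as abundant as the least abundant subunit, 14.5% were below 0 here, with a median of 0.49. The part of abundance in the differences of the subunits was not tested. CCT2, which the choice of the complex used, had a difference of 0.63 (SE 0.22) and is given as a value only. By edgeR with Benjamini-Hochberg adjustment 0 of the 7 other subunits were called, beside 0.0583% of all genes called in either direction, with adjusted p-values of 0.364 to 0.786. DESeq2 called 0 of the 7, beside 77 of 17162 genes called higher and 146 called lower. TCP1 had the largest difference (1.05, SE 0.35), followed by CCT8 (1.01, SE 0.39) and CCT5 (0.84, SE 0.34), the 3 subunits whose level was highest above its group in the third R1 −Met+Hcy library. Without that library their differences were 0.70, 0.57 and 0.47, all 8 were between 0.32 and 0.70, and 0 of the 7 were called. With the trends of GC content and length removed TCP1 was called in edgeR, at a difference of 0.79, beside 112 of 15857 genes called higher. A call in HEK293T cells and none in R1 cells does not by itself show that the lines differ. The comparisons share the libraries of each group, so their values are not independent.

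The levels of the lines were next compared within each medium. In +Met, 8 of 8 subunits were lower in R1 than in HEK293T cells on the TMM scale, by log2 fold changes of −0.25 (CCT2) to −1.05 (TCP1) and a median of −0.53, but on the scale of total counts CCT2 (0.10) and CCT6A (0.05) were above 0 and the median was −0.17, and CCT2 was also above 0 (0.11) with the trends of GC content and length removed. TCP1 alone was called, at −1.05 (SE 0.25, adjusted p = 0.0199 by edgeR with Benjamini-Hochberg adjustment), 1 of the 7 other than CCT2 beside 4.48% of all genes called lower. Its R1 +Met libraries (674, 865 and 681 CPM) lay below the HEK293T +Met libraries (1151, 1228 and 1240 CPM) and close to those of HEK293T in −Met+Hcy. CCT8 also had no overlap, with R1 at no more than 736 CPM and HEK293T at no less than 771 CPM, at −0.66 (SE 0.28, adjusted p = 0.155), and 2 of 8 without overlap stand beside 9.15% of all genes. The others tested were CCT4 (−0.61), CCT3 (−0.57), CCT5 (−0.48), CCT7 (−0.47) and CCT6A (−0.30), with adjusted p-values of 0.0897 to 0.289. Of the 275 abundant genes 86.2% were below 0 in this comparison, with a median of −0.57, so that all subunits but TCP1, CCT8, CCT4 and CCT3 lay at or above the median of their class.

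TCP1 lost its call when any 1 HEK293T +Met library or the first or the third R1 +Met library was left out, and its adjusted p then reached 0.102. Without the second R1 +Met library TCP1, CCT3 and CCT4 were called, beside 1111 of 17041 genes called lower. The third R1 −Met+Hcy library belongs to neither group of this comparison but enters the shared spread. Without it 6 of the 7 other than CCT2 were called, all but CCT6A, with adjusted p-values by edgeR of 0.000334 (TCP1) to 0.0262 (CCT4). Beside these, 2673 of 17069 genes were called lower in that fit. With 1 library left out, TCP1 was among the called subunits in every fit that had any.

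In −Met+Hcy the 2 lines were close. Log2 fold changes of R1 against HEK293T were −0.22 (CCT4) to 0.38 (CCT2), with 5 above 0 and 3 below it, and the median was 0.08. CCT2 is again given as a value only. By edgeR with Benjamini-Hochberg adjustment 0 of the 7 others were called, with adjusted p-values of 0.337 to 1. Beside this, 1235 of 17162 genes were called higher and 1160 (6.76%) lower. DESeq2 also called 0 of the 7, beside 1814 of 17162 genes called higher and 1729 called lower. CCT2 (443, 417 and 319.5 CPM in R1 against 275 to 316 CPM in HEK293T) and CCT6A (512 to 562 CPM against 459 to 512 CPM) were higher in R1 without overlap, 2 of 8 beside 13.9% of all genes higher without overlap, and for CCT6A the gap between the groups was 0.095 CPM. Without the third R1 −Met+Hcy library the log2 fold change of CCT2 was 0.44, and those of the others were −0.36 (TCP1) to 0.02 (CCT6A).

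Levels were compared between subunits per kilobase of the canonical transcript, as shares of their sum within a library, which no scaling between libraries can move. In HEK293T +Met, CCT3 took 24.0% of the sum, followed by CCT7 (15.4%), CCT4 (14.7%), TCP1 (14.2%), CCT8 (11.6%), CCT6A (7.31%), CCT2 (7.22%) and CCT5 (5.55%). CCT7, CCT4 and TCP1 overlapped over libraries, as did CCT6A and CCT2, and the other neighbours in this order did not. CCT3 stood at 865 ± 26.5 CPM per kb and CCT5 at 200.2 ± 4.64 CPM per kb (mean ± SD, n = 3), a range of 4.32 times among proteins that each ring holds in 1 copy. The same order of the highest 3 (CCT3, CCT7, CCT4) and of the lowest (CCT5) held in HEK293T −Met+Hcy and in R1 +Met. One entry per gene hides which transcript was made, so these shares rest on the canonical lengths.

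The makeup shifted in HEK293T cells for TCP1 and CCT7. The share of TCP1 was 13.8, 14.3 and 14.6% in +Met and 11.8, 11.6 and 11.5% in −Met+Hcy, and that of CCT7 was 16.3, 15.5 and 14.5% in +Met and 20.3, 19.1 and 18.5% in −Met+Hcy. Neither overlapped between the media. The share of CCT2 was 7.22 ± 0.70% and 6.31 ± 0.70% (mean ± SD, n = 3), with overlap. In R1 +Met, TCP1 took 9.96, 10.4 and 10.2%, below both HEK293T groups, and CCT2 took 8.42 to 9.89%, above both. In the first and second R1 −Met+Hcy libraries CCT2 took 8.61 and 8.96%, within the range of R1 +Met. TCP1 took 9.31 and 9.46% there, below every R1 +Met library. CCT7 took 18.8 and 19.6%, above the 15.3 to 17.7% of R1 +Met, so both moved in the direction seen in HEK293T cells. In the third library TCP1 took 14.8%, CCT8 19.8%, CCT5 9.40% and CCT7 11.3%. Shares of summed counts, without the lengths, gave the same shifts, with TCP1 at 15.4% and 12.6% and CCT7 at 13.2% and 16.5% in HEK293T +Met and −Met+Hcy. The order of the subunits was not kept without the lengths. By counts in HEK293T +Met, CCT4 (16.2%) and TCP1 stood above CCT7, and CCT2 (6.38%) stood below CCT5 (8.42%).

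**Figure D3:**
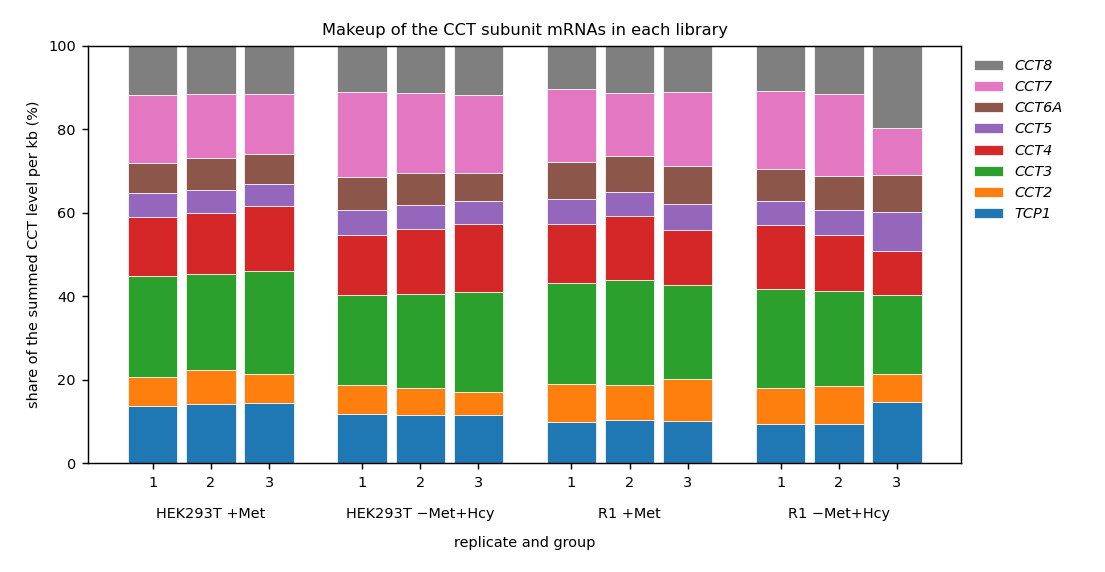
Share of each subunit in the summed level per kb of the 8 subunit mRNAs, in percent, for each of the 12 libraries by group and replicate. TCP1 is narrower and CCT7 wider in HEK293T −Met+Hcy than in HEK293T +Met, and the third R1 −Met+Hcy library departs from all others through CCT8, TCP1 and CCT5.

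A paralog of the complex moved the other way. CCT6B, a zeta subunit known mainly from testis, had 21, 17 and 28 counts in HEK293T +Met and 255, 285 and 318 counts in HEK293T −Met+Hcy, or 1.40 ± 0.284 and 18.5 ± 2.16 CPM (mean ± SD, n = 3). It rose with a log2 fold change of 3.43 (SE 0.33, adjusted p = 0.000416 by edgeR with Benjamini-Hochberg adjustment), while CCT6A, its ubiquitous counterpart, was lower. In R1 cells CCT6B had 70, 98 and 46 counts in +Met and 102, 99 and 186 counts in −Met+Hcy (0.94, adjusted p = 0.622). It was higher in R1 than in HEK293T cells in +Met (1.28, adjusted p = 0.0253) and lower in −Met+Hcy (−1.21, adjusted p = 0.0176). The difference of the responses was −2.49 (SE 0.43), with an adjusted p of 0.0906 in edgeR that ranged from 1.77e-09 to 0.326 over the alternatives, and it was 0.00286 without the third R1 −Met+Hcy library. Even at its highest CCT6B reached 20.9 CPM, against 459 CPM for the lowest CCT6A library of that group. How kallisto divided reads between these paralogs was not tested. CCT8L2, the other paralog listed, had at most 2 counts in any library and was not tested.

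**Figure D4:**
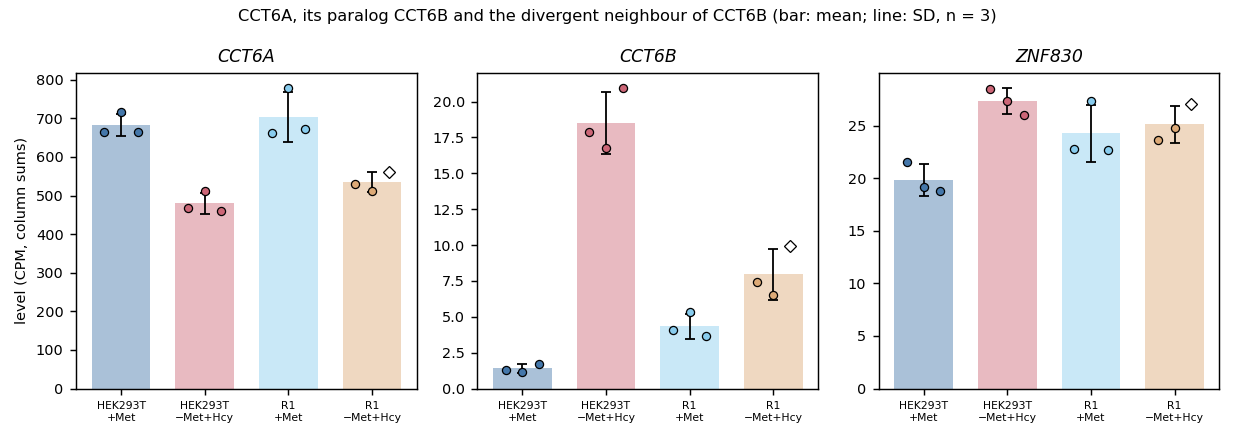
Level of CCT6A, of its paralog CCT6B and of ZNF830, the gene on the opposite strand next to CCT6B, in CPM of column sums on linear axes from 0; points are libraries, bars are means and lines are SD (n = 3), and the open diamond is the third R1 −Met+Hcy library. CCT6A is lower and CCT6B higher in HEK293T −Met+Hcy than in HEK293T +Met, and CCT6B is plotted on its own axis.

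Several subunit genes start close to a gene on the opposite strand, and these neighbours were followed since a shared start region is common among such pairs. Within 1000 bases lay MRPL18, a mitochondrial ribosomal protein, 865 bases from TCP1; TSACC, 234 bases from CCT3; ATPSCKMT, 392 bases from CCT5; and PSPH, the last enzyme of serine synthesis, 321 bases from CCT6A. In HEK293T cells across the media, MRPL18 had a log2 fold change of −0.65 (adjusted p = 0.129), PSPH of 0.81 (0.18), TSACC of 0.72 (0.255) and ATPSCKMT of 0.19 (0.594), so that 0 of 4 passed edgeR's test with Benjamini-Hochberg adjustment. PSPH and CCT6A lay on opposite sides of 0, with PSPH at 30.2, 30.5 and 40.03 CPM in +Met and 59.8, 75.6 and 81 CPM in −Met+Hcy. In CPM, MRPL18 was lower without overlap between the media in HEK293T cells, beside 9.8% of all genes that were lower without overlap. The other neighbours had higher mean CPM in −Met+Hcy. Nothing is read from this, since by total counts the median log2 fold change of all genes was itself 0.33. In R1 against HEK293T in +Met, MRPL18 was lower (−0.98, adjusted p = 0.0236), beside −1.05 for TCP1. In R1 across the media the 4 neighbours were at −0.24 to 0.41 with adjusted p-values of 0.685 to 0.729. ZNF830, 80 bases from CCT6B and chosen after its values were seen, was at 0.17 in HEK293T cells (adjusted p = 0.662 by edgeR with Benjamini-Hochberg adjustment).

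The partners of CCT were taken from lists of cochaperones and substrates. Prefoldin, which hands unfolded actin and tubulin to CCT, had 6 of 6 subunits below 0 in HEK293T cells and 0 called, with a median of −0.57. Of all genes tested 47.5% were below 0 in this comparison. Its members were PFDN4 (−1.28), VBP1 (−0.96), PFDN2 (−0.61), PFDN6 (−0.53, under several identical entries), PFDN5 (−0.39) and PFDN1 (−0.29). Without the third R1 −Met+Hcy library 4 of the 6 were called, beside 2138 of 17069 genes called lower. In R1 cells the prefoldin median was 0.18, or −0.22 without that library, with 0 called either way. Of the 6 tubulin folding cofactors, which act after CCT, TBCC rose in HEK293T cells, at 29.7, 26.4 and 27.5 CPM in +Met and 84.4, 89.3 and 92.1 CPM in −Met+Hcy (1.37, SE 0.21, adjusted p = 0.00407 by edgeR with Benjamini-Hochberg adjustment). The others were TBCA (−1.13, adjusted p = 0.131), TBCD (−0.33 and −0.79 for its 2 entries), TBCB (−0.24), TBCE (−0.15 to −0.19 for its 3 entries) and TBCEL (0.23), of which none passed. Without the third R1 −Met+Hcy library TBCA was called as well (adjusted p = 0.000746 by edgeR with Benjamini-Hochberg adjustment), and 0 of 6 passed in R1 cells with or without it.

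Of 13 actin and tubulin genes, the best known substrates, 4 fell in HEK293T cells and 0 rose, beside 2.78% of all genes called lower. Of the 275 genes at least as abundant as the least abundant subunit 18.9% were called lower, and the part of abundance in this list was not tested. Without the third R1 −Met+Hcy library 6 of the 13 were called lower, beside 2138 of 17069 genes. The 4 were TUBA1B (−1.38), TUBA1C (−1.33), TUBB (−1.12) and ACTG1 (−1.01), with adjusted p-values of 0.00208 to 0.0238 by edgeR with Benjamini-Hochberg adjustment. TUBA1B, an alpha-tubulin, stood at 2862, 2699 and 2859 CPM in HEK293T +Met and at 1158, 1396 and 1417 CPM in −Met+Hcy. TUBB is listed under several near-identical entries and is uncertain. In R1 cells 0 of 13 passed and the median was −0.22. Of 13 WD40 proteins and other substrates, 1 passed in HEK293T cells, beside 2.78% of all genes called lower. It was CDC20, an activator of the anaphase-promoting complex (−0.86, adjusted p = 0.0383 by edgeR with Benjamini-Hochberg adjustment). Without the third R1 −Met+Hcy library 3 were called lower, beside 2138 of 17069 genes. The median of this list was −0.03. Whether the substrate lists differ from each other was not tested.

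Other chaperones were lower beside CCT. HSPD1 and HSPE1, the chaperonin of mitochondria and its lid, both fell in HEK293T cells, by 1.19 and 1.57 on the log2 scale (adjusted p = 0.00407 and 0.0141 by edgeR with Benjamini-Hochberg adjustment), and stood at −0.15 and 0.03 in R1. Of 13 genes of HSF1 and the cytosolic heat shock response, which includes factors that work with CCT, 7 fell in HEK293T cells, beside 2.78% of all genes, 0 rose and the median was −0.95. Of the 275 genes at least as abundant as the least abundant subunit 18.9% were called lower, and the part of abundance in these lists of chaperones was not tested. Without the third R1 −Met+Hcy library 10 of the 13 were called lower, beside 2138 of 17069 genes. The constitutive HSP70, HSPA8, had the largest change of the 7, from 3463, 4009 and 3984 CPM to 797, 1078 and 1061 CPM (−2.25, SE 0.28, adjusted p = 0.00139). HSPA4 (−1.60), a nucleotide exchange factor for HSP70, DNAJA1 (−1.15), a J-domain protein, HSP90AA1 (−1.03), STIP1 (−0.95), HSP90AB1 (−0.93) and HSPH1 (−0.81) were the others. HSF1 itself was at −0.47 (adjusted p = 0.4) and HSPB1, a small heat shock protein, at −0.30 (0.381). In R1 cells 0 of 13 passed, with HSPA8 at 0.00 and a median of −0.20, and the difference between the lines for HSPA8 was 2.25 (adjusted p = 0.085), or 1.91 (adjusted p = 0.00857) without the third R1 −Met+Hcy library. By contrast MAT2A rose in both lines, by 1.58 in HEK293T (adjusted p = 0.00204) and 2.09 in R1 cells (adjusted p = 0.00698), and CHAC1 was at 4.68 (adjusted p = 0.000538) and 2.11 (0.622). MAT2A was the 1 gene called in R1 cells across the media, and 0 genes were called there when any 1 R1 +Met library was left out or when the libraries of the comparison were fitted alone.

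**Figure D5:**
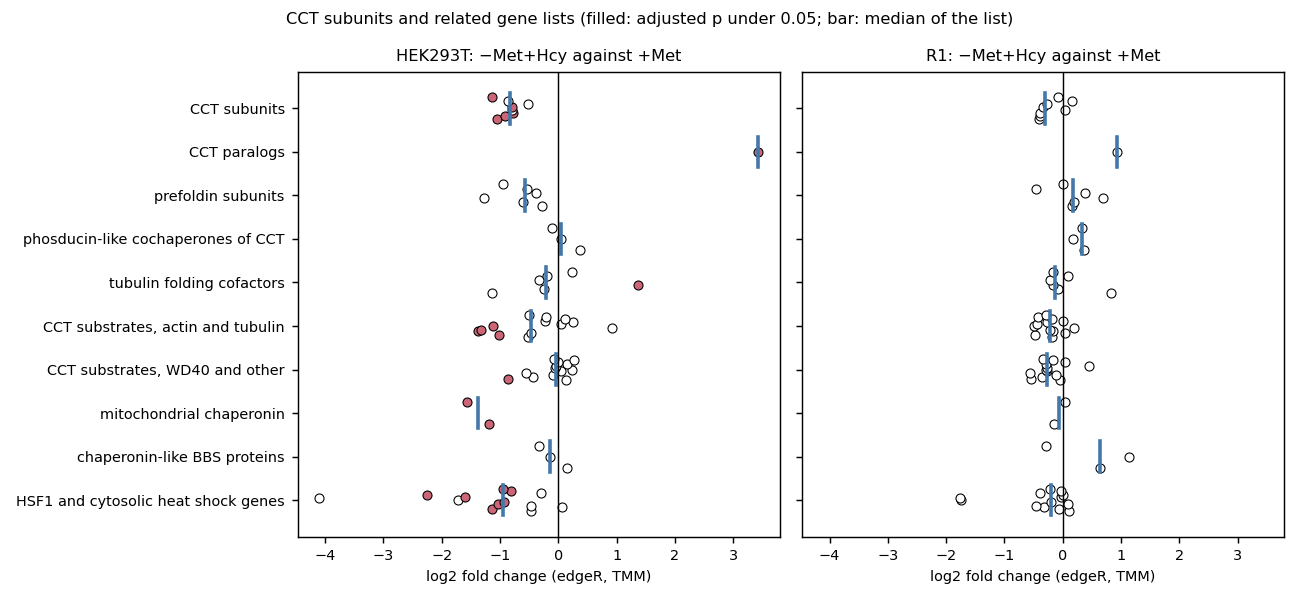
Log2 fold change in −Met+Hcy against +Met for the 8 CCT subunits and for each gene tested of the lists of related genes, in HEK293T and in R1; filled points have an adjusted p under 0.05 and vertical bars are list medians. In HEK293T the medians of the CCT subunits (−0.83), the mitochondrial chaperonin (−1.38) and the heat shock genes (−0.95) lie farthest below 0, and in R1 no point is filled. The complex was chosen by CCT2 in the HEK293T libraries, so nothing is read from the filled subunit points there. They are 5 of 8, beside 2.78% of all genes called lower.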

How the data were processed

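RNA-seq libraries of HEK293T and R1 cells were analysed. The reads were quantified by the authors with kallisto 0.48.0 and GRCh38, per the labels, and the deposited values are counts per Ensembl gene, all whole numbers and not scaled. The strand setting and a library batch are not given in the sources used here. Columns were matched to samples by the library names in the labels. The members and all gene lists were chosen with earlier results of these data known.

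TMM factors were used, and edgeR 4.0.16 (R 4.3.3) fitted 1 quasi-likelihood model to the 12 libraries, with group means as coefficients and 8 residual degrees of freedom, for the 17162 genes with a summed count of at least 10. Benjamini-Hochberg adjustment covered all of these, and a call needed an adjusted p under 0.05. CPM was computed from column sums. The comparisons were the medium in each line, the difference of these responses and the lines within each medium. The code was tested on simulated data. Lengths, GC content and coordinates came from the GENCODE annotation of GRCh38, and promoters from RefSeq.

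The genes named were the members, all genes of lists of up to 6, otherwise those with the 3 smallest p in HEK293T and the 2 smallest in R1 cells, neighbours within 1000 bases, the 5 genes most correlated with the members, and MAT2A and CHAC1. Others called are named for completeness. Replicate numbers were not shown to pair the libraries: deviations of libraries with the same number correlated at 0.003, −0.067 and 0.484 in HEK293T and at 0.074, −0.47 and −0.09 in R1. These deviations sum to 0 within a group and run with GC content, so they cannot decide whether libraries were paired. The alternatives were DESeq2 1.42.0, other scalings, filters and call rules, robust spread, the libraries of a comparison alone, a replicate block, removal of trends with GC content and length (loess span 0.3), 1 entry per identical copy, and leaving out each library. DESeq2 without the third R1 −Met+Hcy library was chosen after the data were seen. The counts limit the precision only by counting error, which is small at the levels of the subunits.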

Additional observations from a re-analysis of the deposited data

How the results depend on the processing

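All 8 subunits stayed below 0 in HEK293T cells under every alternative run, and the size and the calls depended on the setting. In HEK293T cells 8 subunits were called with DESeq2 (beside 947 of 17162 genes called lower), with the trends of GC content and length removed (1485 of 15857) and with the libraries of the comparison alone (2527 of 16275). Without the third R1 −Met+Hcy library trend removal (2849 of 15798) and DESeq2 (2596 of 17069) also called 8. With the fold change rule 2 were called, beside 273 of 17162 genes. Leaving out 1 library gave 1 to 8, beside 73 to 2138 genes called lower. The replicate block left 2 called in HEK293T cells, beside 214 of 17162 genes called lower, 0 in R1, and 1 in +Met, beside 445 of 17162. Same-numbered libraries were not shown to be paired. Total count scaling moved the median to −0.54 in HEK293T, 0.26 for the difference and −0.17 in +Met. In R1 across the media DESeq2 without the third −Met+Hcy library called 1, beside 18 of 17069 genes called lower. For the difference, DESeq2 called 1 (CCT2) and trend removal 1 (TCP1), beside 77 of 17162 and 112 of 15857 genes called higher. Without that library they called 2 each (TCP1 with CCT2, and TCP1 with CCT5), beside 418 of 17069 and 584 of 15798 genes. In +Met, DESeq2 called 4 (beside 1365 of 17162 genes called lower), trend removal 3 (1571 of 15857) and the libraries of the comparison alone 3 (2167 of 16201). Without that library trend removal called 6 (2985 of 15798) and DESeq2 8 (3085 of 17069). Leaving out 1 library gave 0 to 6, beside 196 to 2673 genes called lower. In −Met+Hcy, DESeq2 called 1, beside 1814 of 17162 genes called higher. Without that library DESeq2 (2878 of 17069) and trend removal (3136 of 15798) also called 1 each. Leaving out 1 library gave 0 to 1, beside 541 to 2680 genes called higher, and the subunit was CCT2 in each case. The calls of CCT2 in the difference and between the lines are listed for completeness, since the choice of the complex used its values.

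Signs turned mainly where the estimate was near 0. In R1 across the media CCT5 turned to −0.037 with total count scaling, −0.12 with trend removal, −0.36 with trend removal without the third library and −0.34 with DESeq2 without it, and CCT8 to −0.13, −0.29 and −0.31 with trend removal, with trend removal without that library and with DESeq2 without it; leaving out 1 library gave −0.44 to 0.092 for TCP1, −0.33 to 0.21 for CCT5 and −0.29 to 0.34 for CCT8. Total count scaling turned the difference of CCT7 to −0.060 and CCT6A in +Met to 0.046, and CCT2 in +Met was at 0.098 with it and at 0.11 with trend removal, with or without the third library. In −Met+Hcy TCP1, at 0.00, was at −0.014 with total counts, −0.00031 without a filter, −0.024 with the replicate block, −0.0048 and −0.13 with trend removal with and without the third library, −0.0094 with 1 entry per copy and −0.37 with DESeq2 without it. CCT3 turned to 0.16 and 0.076 with trend removal, with and without that library, CCT4 to 0.059 and CCT7 to 0.028 with trend removal without it, and CCT5 to −0.012 and CCT8 to −0.10 with DESeq2 without it. Leaving out 1 library gave −0.36 to 0.17 for TCP1, −0.17 to 0.056 for CCT3, −0.0043 to 0.53 for CCT5 and −0.093 to 0.54 for CCT8. The cause of these changes was not tested.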

Other observations

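The genes whose log2 CPM over the 12 libraries was most like the mean of the 8 subunits, of 11633 genes with a mean log2 CPM over 2, were LDHA (Pearson's r = 0.985), RPL14 (0.976), RBMX (0.975) and CAP1 (0.97), where LDHA is listed as 2 identical entries. LDHA, the enzyme that turns pyruvate into lactate, was at 545, 546 and 537 CPM in HEK293T +Met, 266, 313 and 309 CPM in HEK293T −Met+Hcy, 375, 416 and 345 CPM in R1 +Met and 293, 295 and 338 CPM in R1 −Met+Hcy. Without the third R1 −Met+Hcy library the nearest 5 were NUDT5 (0.99), HSPE1 (0.988), EIF3H (0.987), UCHL3 (0.987) and PSMD6 (0.986), none of which were among the first 5. By Spearman's rho LDHA (0.993) and CAP1 (0.972) led with all libraries. Among the 28 pairs of subunits the correlation over the 12 libraries was 0.355 to 0.983 with a median of 0.812, and 0.693 to 0.983 with a median of 0.946 without that library. These points share the 4 groups and are described without a test.

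The phosducin-like proteins, which bind CCT and adjust its ATPase cycle, had 0 of 3 tested members called in HEK293T or R1 cells across the media. They were at 0.36 (PDCL), 0.04 (PDCL3) and −0.10 (TXNDC9) in HEK293T, and PDCL2 had at most 5 counts in a library. Without the third R1 −Met+Hcy library 1 (PDCL, adjusted p = 0.0386 by edgeR with Benjamini-Hochberg adjustment) was called higher in HEK293T cells, beside 2593 of 17069 genes called higher. The chaperonin-like proteins of the Bardet-Biedl syndrome, which assemble with CCT on the way to the BBSome, also had 0 of 3 called in either line, at −0.34 (MKKS), 0.15 (BBS10) and −0.14 (BBS12) in HEK293T cells. GNB2 (−0.55), FZR1 (−0.44) and PLK1 (−0.06) of the list of WD40 and other substrates did not pass in HEK293T cells, though GNB2 and FZR1 did without that library, and HSPA1A, of whose 5 entries 2 were tested, was at −1.71 and −2.66 with adjusted p-values of 0.232 and 0.352 in edgeR's test with Benjamini-Hochberg adjustment.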
